A study of Homo sapiens with 12 samples.

Results

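Potassium, calcium and sodium channel genes were followed in 12 mRNA-seq samples of human neural progenitors carrying a miR-10a or miR-10b vector, which was switched on in 6 of them. A gene was taken as a channel gene when its RefSeq symbol began with KCN or CACN, or was SCN followed by a number and A or B; 18 antisense and intronic names were left out. This gave 138 of the 25718 genes in the files, each represented by its transcript with the highest mean count. The choice used names only and no measured value.

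The cultures were H9 human embryonic stem cells (hESCs), an established line, transduced as bulk populations at a multiplicity of infection of 50 with a lentiviral vector that carries a GFP reporter and either miR-10a or miR-10b under doxycycline control. All 12 cultures were differentiated for 14 days. Shh and the GSK3 inhibitor CT99021, the patterning used to obtain ventral midbrain progenitors, were given in the first part of this time. By the paper's protocol both factors ended before day 11, when the cells were replated in another medium. There were 4 groups of 3 samples. In the miR-10a doxycycline and miR-10b doxycycline groups the drug was present from day 11 to day 14, that is for 3 days, and each of the other 2 groups (called controls below) carried the same vector and never received the drug. The comparison asks which transcripts move after a short pulse of each miRNA. No doxycycline-treated culture without a miR-10 insert was among these samples, so an effect of the drug itself cannot be told apart from one of the miRNA.

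Voltage-gated channels are built from pore-forming subunits, which open on a change in membrane potential, and auxiliary subunits, which set how many channels reach the membrane and how they gate. Inward rectifiers and two-pore-domain channels hold the resting potential, and calcium-activated potassium channels couple calcium entry to repolarization. In dividing neural progenitors most of the excitable repertoire is not yet in place. Potassium channels that set the resting potential and modulate the cell cycle are commonly present there, and the set of voltage-gated channels grows as neurons mature.

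The samples held 10545487 to 14165426 assigned reads, and 3 reads corresponded to 0.212 to 0.284 CPM, the read count scaled to a common library total. The precursor of the induced miRNA marked the groups as labelled. MIR10A stood at 711 to 731 CPM in the miR-10a doxycycline samples and at 0.641 to 1.37 CPM in their controls, and MIR10B at 2541 to 2662 CPM against 2.89 to 4.45 CPM. Progenitor markers were abundant (NES, VIM, SOX2), as were the floor plate genes SHH and FOXA1, whereas the floor plate gene LMX1B, listed with 3 transcripts, had no count in any sample. Of 5 pluripotency genes DPPA4 had a mean count of 1551 and the other 4, all but ZFP42 listed with several transcripts, had under 1. One sample, miR-10b doxycycline replicate 2, differed more from the other 2 of its group (chi-square per degree of freedom 3.17 and 4.11) than any other pair of replicates did (1.22 to 1.93), and the calls of named genes that are lost without it are given both ways. Nothing stated that the replicates of a group came from separate differentiations, so the p-values measure the spread between these samples, which may be technical.

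Of the 138 channel genes, 60 (43.5%) had a mean count above 10 and entered the test, close to the 44.5% of all genes. Of the other 78, 63 had some counts and 15 had none in any sample. Among the 15 were the calcium channel pores CACNA1F and CACNA1G, the sodium channel genes SCN1A, SCN10A and SCN4B, and the potassium channel genes KCNG3, KCNH2, KCNQ5, KCNJ1, KCNJ3, KCNJ13, KCNJ18, KCNK7 and KCNK18. A low count was not by itself a sign of low expression here. Among channel genes listed with 1 transcript, 64.6% of 65 were tested and the median mean count was 32.7, whereas among those listed with several transcripts 24.7% of 73 were tested and the median was 2.25. All genes showed the same step (50.7% against 34.0%). GAPDH, a housekeeping gene listed with 4 transcripts, had a summed mean count of 50.9, while ACTB, listed with 1, had 107120, so reads shared by several transcripts appear to be missing from the counts. KCNJ12 and KCNJ18 are near-identical copies, and their counts may be split or lost in the same way.

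The channel genes together took 0.130 to 0.152% of all reads in a sample, and their mean levels summed to 1375 CPM. Auxiliary subunits of calcium channels led. CACNG4, which belongs to the gamma subunit family and encodes a trafficking partner of AMPA-type glutamate receptors, gave 19.2% of that sum, and the long noncoding RNA KCNQ1OT1 gave 18.1%. The 5 members with the highest CPM gave 60.4%.

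**Figure D1:**
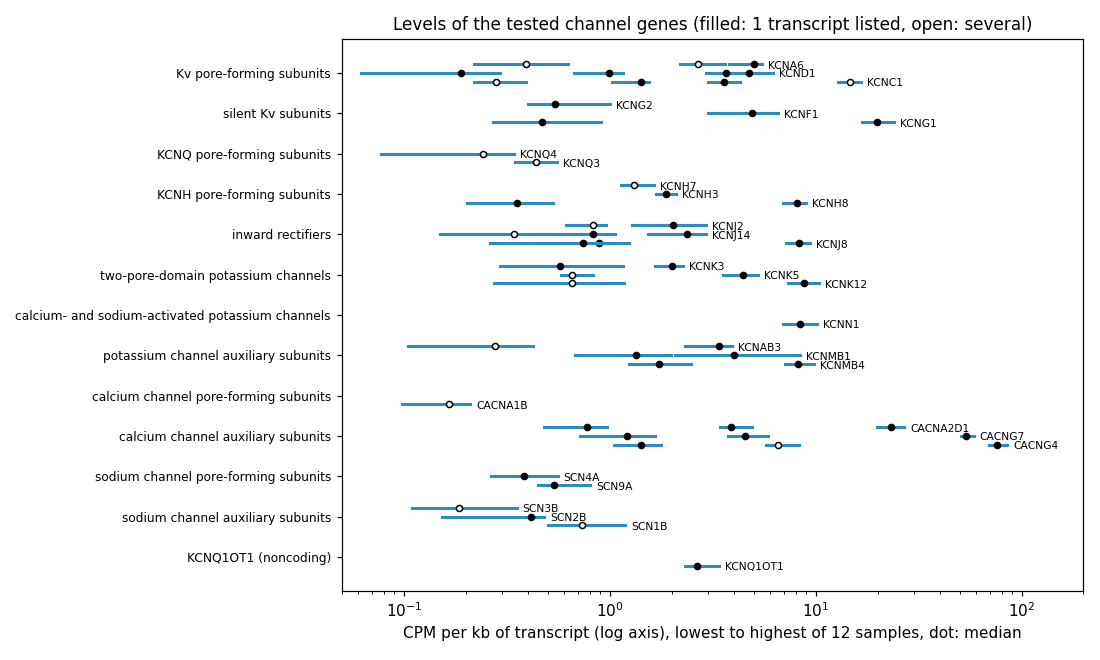
Levels of tested channel genes, in CPM per kb of transcript on a log axis, by family; bars run from the lowest to the highest of the 12 samples and dots mark the median, filled for genes listed with 1 transcript and open for several. CACNG4 (69.8 to 85.2) and CACNG7 (50.9 to 58.6) lie to the right of every other gene, and the tested pore-forming subunits of calcium and sodium channels lie towards the left.

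Per kb of transcript, CACNG4 ranged over the 12 samples from 69.8 to 85.2 CPM and CACNG7, another AMPA receptor partner, from 50.9 to 58.6. These ranges did not overlap, and both lay above the range of CACNA2D1, the alpha-2-delta subunit that binds gabapentin (20.0 to 26.9). KCNG1, a silent subunit that conducts only together with KCNB pores, reached 16.8 to 24.0 and overlapped CACNA2D1. KCNC1, the Shaw-type pore of fast-spiking neurons, followed at 12.9 to 16.6 CPM per kb, just below KCNG1. Several genes further down the order could not be separated by their ranges. Among these were KCNK12, a two-pore-domain subunit (7.34 to 10.4), KCNN1, a small-conductance calcium-activated channel (6.96 to 10.2), KCNMB4, the neuronal auxiliary subunit of the large-conductance calcium-activated channel (7.10 to 9.86), KCNJ8, the pore of an ATP-sensitive channel (7.17 to 9.35), and KCNH8, an ELK-type pore (6.91 to 8.99). KCNQ1OT1, transcribed antisense to KCNQ1 from its imprinted locus, ranged from 2.33 to 3.38 CPM per kb over a transcript of 91671 bases.

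By the highest level per kb of any member, the pores of calcium and sodium channels were the lowest families. Of 10 calcium channel pores only CACNA1B, the N-type channel of presynaptic terminals, passed the count filter, with a mean of 0.164 CPM per kb. CACNA1A and CACNA1E stayed under it with 8.58 and 8.25 mean counts. Of 10 sodium channel pores SCN9A, known from pain-sensing neurons (mean 0.546 CPM per kb), and SCN4A, the skeletal muscle channel, passed, and SCN2A stayed under it with 7.50 mean counts. However, 9 of the 10 calcium pores and 8 of the 10 sodium pores are listed with several transcripts, the class with the lower counts, whereas CACNG4, CACNG7, CACNA2D1, KCNG1, KCNMB4, KCNJ8 and KCNH8 are listed with 1. The part of this listing in the contrast between pores and auxiliary subunits was not tested.

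Neighbouring family members on one chromosome differed widely in count. On chromosome 17 (hg19, plus strand) CACNG5 (64831235 to 64890868), CACNG4 (64960823 to 65029514) and CACNG1 (65040670 to 65052913) lie in a row, each listed with 1 transcript, with mean counts of 1.58, 3260 and 9.92. On chromosome 12 KCNA6 (4918500 to 4922484), KCNA1 (5019071 to 5027422) and KCNA5 (5153045 to 5155954), all Shaker-type pores with 1 listed transcript, had 351, 8.92 and 34.2 mean counts.

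miR-10a and miR-10b share their seed, the stretch of a miRNA that pairs with target 3' untranslated regions (3'UTRs), so the channel genes were searched for it. The mature sequence of miR-10a-5p (RefSeq, GRCh38.p14, chr17:48579904-48579926, minus strand) is shown first with the seed, bases 2 to 8, in capitals, and is followed by 3 sites that the results below refer to, with the matching bases in capitals and 9 bases on each side.
miR-10a-5p: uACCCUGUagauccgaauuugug
KCNA6, 8mer: cataactttACAGGGTAacttgggtc
CACNG8, 8mer: gacagaggcACAGGGTAggggctgat
KCNMB1, 7mer-A1: tttaagttgCAGGGTAcacgttcag
An 8mer match reads ACAGGGTA, a 7mer-m8 match ACAGGGT and a 7mer-A1 match CAGGGTA, a 6mer match is CAGGGT alone, and only the strand of the transcript was searched. Each gene was classed by the longest of these in its longest annotated 3'UTR (GENCODE 44, hg19 coordinates). The KCNA6 match lies at chr12:4922417-4922424 (plus strand), 1620 bases into a 3'UTR of 1687 bases. The CACNG8 match lies at chr19:54490197-54490204 (plus) and the KCNMB1 match at chr5:169803857-169803863 (minus).

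Of the 59 tested channel genes with an annotated 3'UTR, 2 had an 8mer (3.39%, against 2.59% of the 9256 tested genes with a 3'UTR), 7 a 7mer-m8 (11.9% against 13.7%), 3 a 7mer-A1 (5.08% against 4.82%) and 23 only a 6mer (39.0% against 19.5%). The remaining 24 had none (40.7% against 59.3%). Channel genes with a 6mer had a median 3'UTR of 2666 bases and those without a match one of 783.5 bases. A match is a stretch of letters and not a shown site of binding.

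With the miR-10a vector, 0 of the 60 tested channel genes passed edgeR's quasi-likelihood test at a Benjamini-Hochberg adjusted p of 0.05, where 1.21% of all 11451 tested genes did (0.472% higher and 0.742% lower). At an unadjusted p under 0.05 there were 7 (11.7%, against 11.2% of all tested genes), and DESeq2 also called 0. In 5 members the 3 doxycycline samples all lay above the 3 controls and in 2 all lay below them (8.33% and 3.33% of members, against 10.5% and 7.75% of all tested genes). The median log2 fold change was -0.02 over the members and 0.01 over all tested genes. The 95% interval lay within 0.5 log2 units of 0 for 34 of the 60 genes, and for the other 26 it reached past that bound.

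With the miR-10b vector 8 of the 60 members passed, 5 higher and 3 lower, a share of 13.3% where 15.3% of all tested genes passed (8.18% higher and 7.15% lower). In 10 members all 3 doxycycline samples lay above all 3 controls and in 7 below (16.7% and 11.7%, against 16.3% and 12.3% of all tested genes). Over both vectors, as the average of both effects, 11 passed, 8 higher and 3 lower, 18.3% where 13.9% of all genes passed (7.67% higher and 6.22% lower). Both shares were near those of all genes, and the 8 members called with miR-10b were all among the 11. The average is computed from the same samples as the single-vector effects, so it is no separate evidence. The balance of higher and lower calls depended on the scaling of the samples: with TMM factors the average called 6 members higher and 3 lower, and with DESeq2 2 higher and 3 lower, while over all genes it went from 878 higher and 712 lower to 665 and 852 with TMM and 459 and 740 with DESeq2. No called member changed direction under either scaling. Leaving out miR-10b doxycycline replicate 2 left 6 members called with miR-10b and 7 over both vectors.

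**Figure D2:**
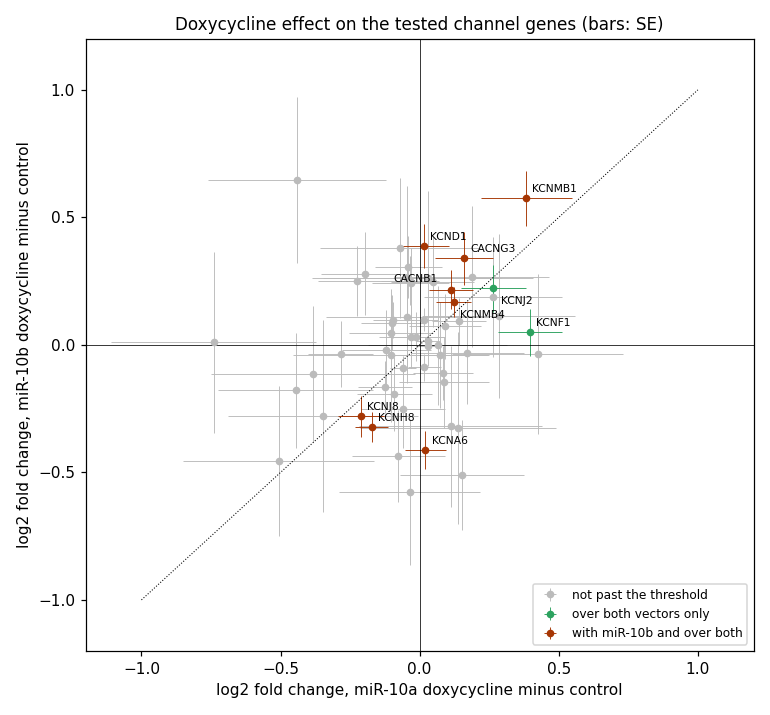
Log2 fold changes of tested channel genes with the miR-10a vector (x axis) and with the miR-10b vector (y axis), doxycycline minus control, with bars of 1 standard error and a dotted line of equal change. The 8 genes past the threshold with miR-10b and over both vectors are in red and genes past it over both vectors only are in green; KCNA6 lies at 0.02 on the x axis and -0.41 on the y axis.

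Pore-forming subunits of voltage-gated potassium channels went both ways. KCNA6, a Shaker-type delayed rectifier, stood at 30.3, 33.0 and 30.7 CPM in the miR-10b controls and at 23.6, 22.8 and 24.1 CPM with doxycycline. With miR-10a it stood at 30.1, 30.2 and 27.4 CPM in the controls and at 26.9, 32.4 and 29.7 CPM with doxycycline. Every miR-10b doxycycline sample was thus below the other 9, while the miR-10a groups overlapped. The log2 fold change was -0.41 ± 0.07 (SE) with miR-10b and 0.02 ± 0.07 with miR-10a (edgeR quasi-likelihood test, Benjamini-Hochberg adjusted p = 9.9e-05 and 0.954). The difference between both effects was itself past the threshold, at -0.43 ± 0.10 (edgeR adjusted p = 0.017), and KCNA6 was the only 1 of the 60 for which it was, 1.67% where 1.96% of all genes passed that test (0.576% higher and 1.38% lower). The difference missed the threshold without miR-10a doxycycline replicate 2 (-0.36, edgeR adjusted p = 0.104), without miR-10a control replicate 3 (-0.39, 0.061) or without miR-10b control replicate 2 (-0.39, 0.064), while the fall with miR-10b passed whichever of the 12 samples was left out.

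KCNA6 was 1 of the 2 tested members with an 8mer match to the seed. The other, CACNG8, an AMPA receptor partner, moved the other way in value: 11.99, 9.19 and 11.1 CPM in the miR-10b controls and 11.7, 15.4 and 12.7 CPM with doxycycline, a log2 fold change of 0.31 ± 0.12 that did not pass (edgeR adjusted p = 0.086). It was 0.19 without miR-10b doxycycline replicate 2 and 0.39 without replicate 1 (edgeR adjusted p = 0.396 and 0.043). With miR-10a CACNG8 was at -0.04 ± 0.12. Over all tested genes with an 8mer, 147 of 240 had a lower value with miR-10b, with a median log2 fold change of -0.04, and 141 with miR-10a, with a median of -0.02. Of the 5492 tested genes whose 3'UTR held no match, 2393 were lower with miR-10b (median 0.02) and 2449 with miR-10a (median 0.01).

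KCNH8, an ELK-type pore that carries none of the 4 kinds of match, was lower with both vectors. It stood at 45.5, 45.0 and 42.3 CPM in the miR-10b controls and 35.0, 36.3 and 35.0 CPM with doxycycline, and at 42.4, 42.4 and 43.99 CPM against 37.2, 37.1 and 39.9 CPM with miR-10a. Neither pair of groups overlapped. The average log2 fold change was -0.25 ± 0.04 (edgeR adjusted p = 4.2e-05), the smallest adjusted p of any channel gene with doxycycline, and the call held without each single sample. With miR-10b alone it was -0.32 ± 0.06 (edgeR adjusted p = 1.3e-04), with miR-10a -0.17 ± 0.06 (0.188), and the difference between both effects was not past the threshold (edgeR adjusted p = 0.466).

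KCND1, a Shal-type subunit of transient A-type currents, rose with miR-10b, from 21.8, 18.6 and 20.1 CPM to 24.3, 29.2 and 25.6 CPM without overlap (log2 0.39 ± 0.09, edgeR adjusted p = 0.0017). With miR-10a its groups overlapped, at 21.1, 24.6 and 22.4 CPM in the controls and 26.2, 20.4 and 22.5 CPM with doxycycline (0.01 ± 0.09). The difference between its effects, 0.37, was not past the threshold (edgeR adjusted p = 0.128). The silent subunit KCNF1 passed only in the average (0.22 ± 0.07, edgeR adjusted p = 0.037), with 7.47, 6.85 and 7.21 CPM against 9.51, 9.69 and 9.10 with miR-10a, and 13.5, 14.96 and 12.9 against 14.0, 14.7 and 14.2 with miR-10b. Its call was lost without any 1 of 7 samples (0.20 to 0.23, edgeR adjusted p from 0.060 to 0.087), miR-10b doxycycline replicate 2 among them, and the difference between its effects was -0.35 (edgeR adjusted p = 0.268).

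**Figure D3:**
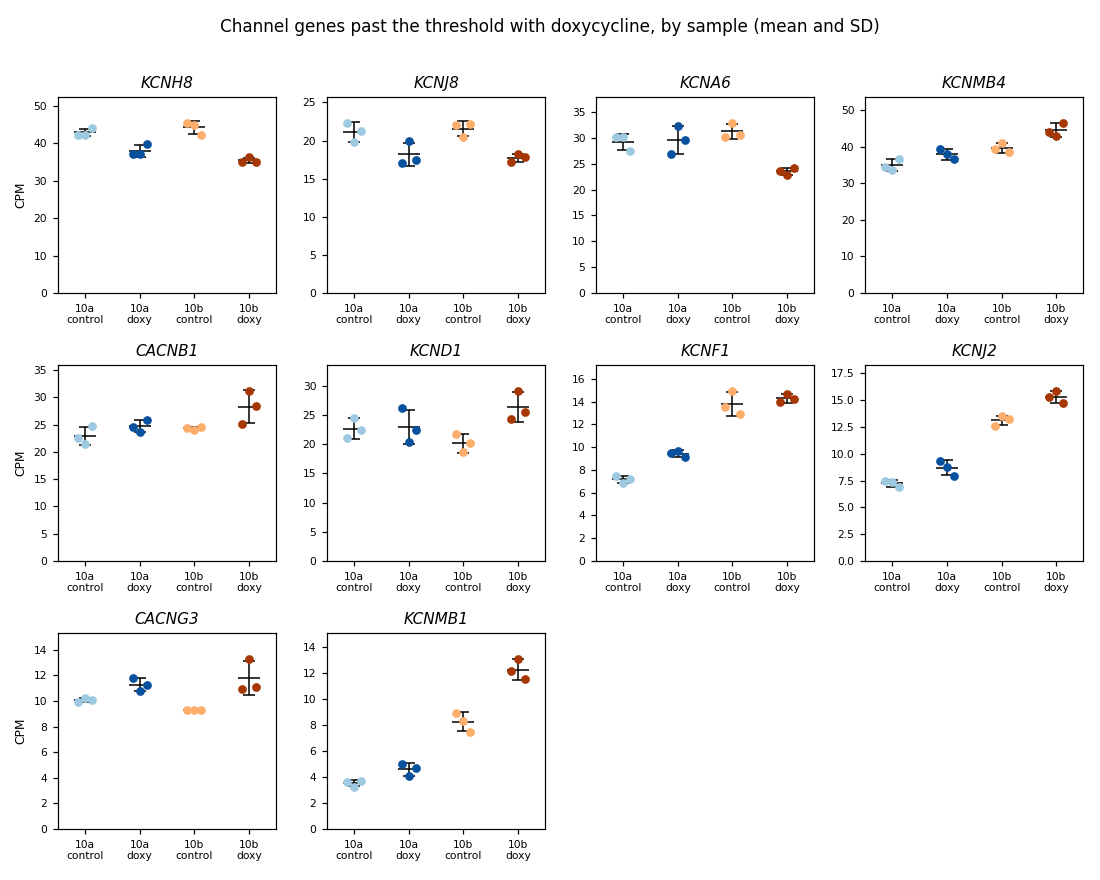
CPM in each of the 12 samples (points), with the mean and SD of each group of 3, for 10 of the 11 channel genes past the threshold with doxycycline; the y axes start at 0. KCNA6 is lowest in the miR-10b doxycycline group (22.8 to 24.1 CPM), KCNH8 is lower with doxycycline for both vectors, and KCNF1, KCNJ2 and KCNMB1 differ more between the vectors' controls than with doxycycline.

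Among inward rectifiers 1 member fell and 1 rose. KCNJ8, the pore of the ATP-sensitive channel of vascular smooth muscle, stood at 22.1, 20.4 and 22.2 CPM in the miR-10b controls and 17.2, 18.2 and 17.9 CPM with doxycycline, without overlap, and at 22.3, 19.8 and 21.3 CPM against 17.1, 20.0 and 17.4 CPM with miR-10a, where 1 sample crossed. The log2 fold change was -0.28 ± 0.08 with miR-10b and -0.25 ± 0.06 over both vectors (edgeR adjusted p = 0.015 and 0.0030). The miR-10b call was lost without doxycycline replicate 1 or control replicate 1 or 3 of that vector (edgeR adjusted p from 0.052 to 0.066). Antisense exons cover 10.7% of the exonic bases of KCNJ8, and whether reads were counted by strand is not given in the sources used here. KCNJ2, which sets the resting potential of muscle and many other cells, rose from 12.6, 13.5 and 13.2 to 15.3, 15.9 and 14.7 CPM with miR-10b and from 7.47, 7.34 and 6.89 to 9.33, 8.78 and 7.97 CPM with miR-10a, without overlap in either. Only the average passed (0.24 ± 0.07, edgeR adjusted p = 0.023), and it was lost without miR-10a doxycycline replicate 1 or miR-10a control replicate 3 (edgeR adjusted p = 0.081 and 0.061).

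Auxiliary subunits that were called were all higher. KCNMB1, the large-conductance channel's partner in smooth muscle, had the largest called change, from 8.98, 8.30 and 7.51 to 12.2, 13.1 and 11.6 CPM with miR-10b and from 3.62, 3.25 and 3.69 to 4.98, 4.06 and 4.74 CPM with miR-10a. No groups overlapped, and the log2 fold change was 0.57 ± 0.11 with miR-10b and 0.48 ± 0.10 over both vectors (edgeR adjusted p = 2.1e-04 and 6.6e-04). The call held without each single sample in both cases. KCNMB1 has the 7mer-A1 match shown above, 1845 bases into an annotated 3'UTR of 4033 bases. Its counted transcript is 1562 bases long in all, less than that distance, so it may not hold this match. KCNMB4 went from 39.2, 41.1 and 38.6 to 44.004, 43.0 and 46.6 CPM with miR-10b, without overlap. With miR-10a it stood at 34.6, 33.5 and 36.7 CPM in the controls and at 39.5, 37.9 and 36.5 CPM with doxycycline, where 1 sample crossed. The miR-10b call lay at the threshold (0.17 ± 0.06, edgeR adjusted p = 0.0496) and was kept in only 1 of the 12 fits that leave out a sample, whereas the average (0.14 ± 0.04, edgeR adjusted p = 0.020) was lost in 3 of 12, without miR-10a doxycycline replicate 1, miR-10a control replicate 2 or miR-10b control replicate 3 (edgeR adjusted p from 0.051 to 0.068).

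On the calcium channel side 2 auxiliary subunits passed with miR-10b and over both vectors, and neither held without miR-10b doxycycline replicate 2. CACNG3, a gamma subunit family member that traffics AMPA receptors, stood at 9.29, 9.26 and 9.32 CPM in the miR-10b controls and at 10.9, 13.3 and 11.1 CPM with doxycycline (0.34 ± 0.10, edgeR adjusted p = 0.023), and without that replicate the value was 0.24 (edgeR adjusted p = 0.181). CACNB1, a beta subunit best known from skeletal muscle, stood at 24.3, 24.1 and 24.6 CPM and at 25.2, 31.2 and 28.4 CPM (0.22 ± 0.08, edgeR adjusted p = 0.0496), and without that replicate the value was 0.14 (edgeR adjusted p = 0.287). In both genes replicate 2 was the highest sample. Over both vectors CACNG3 was at 0.25 ± 0.07 and CACNB1 at 0.16 ± 0.06 (edgeR adjusted p = 0.020 and 0.042), and without that replicate at 0.20 and 0.13 (0.077 and 0.124). Leaving out other single samples also ended calls of CACNG3 (edgeR adjusted p up to 0.063) and of CACNB1 (up to 0.124). The miR-10b call of CACNB1 was lost even without any single miR-10a sample (edgeR adjusted p from 0.0501 to 0.059). That call was kept only without miR-10b doxycycline replicate 1, and the average call of CACNB1 was kept in 3 of 12 such fits. Without miR-10b doxycycline replicate 2, KCND1 kept its miR-10b call but lost the average one (0.16, edgeR adjusted p = 0.071). The average call of KCND1 was also lost without any 1 of 5 other samples (0.15 to 0.20, edgeR adjusted p from 0.053 to 0.138).

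The most abundant members moved little. CACNG4 changed by 0.03 ± 0.04 with miR-10a and by 0.00 ± 0.04 with miR-10b on the log2 scale, with 95% intervals from -0.04 to 0.10 and from -0.07 to 0.07. CACNG7 changed by 0.03 and 0.01, with intervals from -0.05 to 0.11 and from -0.07 to 0.10. KCNQ1OT1 was at -0.10 ± 0.07 and 0.10 ± 0.07, and the miR-10b value turned to -0.06 without doxycycline replicate 2, the highest of its samples. For the single calcium channel pore tested, CACNA1B, the intervals were wide (with miR-10a, 0.19 with an interval from -0.36 to 0.73). None of the 3 KCNQ, 6 two-pore-domain, 2 sodium pore and 3 sodium auxiliary genes tested passed with doxycycline in either vector or the average, nor did KCNN1.

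Other genes of ion transport were counted in the same way. Of a list of 43 pumps, exchangers, intracellular calcium channels, HCN and chloride channels and channel anchors, 26 were tested, and the shares of all tested genes given above (1.21% with miR-10a, 15.3% with miR-10b and 13.9% over both) are the background here too. With miR-10a, 1 was higher, the sodium/calcium exchanger SLC8A2 (0.43 ± 0.08, edgeR adjusted p = 9.4e-04). With miR-10b, 4 were higher, namely SLC8A2 (0.51), the sodium pump subunit ATP1B2 (0.36), the pacemaker channel HCN3 (0.33) and the axonal anchor ANK3 (0.27), and 1 was lower, the pump subunit ATP1B3 (-0.18). The average called 3, all higher, SLC8A2 and ATP1B2 among them.

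Fewer cells of a type and less RNA per cell cannot be told apart in bulk samples, and cell type markers moved with doxycycline. The summed level of 10 neuronal markers was 929 to 960 CPM in the miR-10b controls and 1028 to 1097 CPM with doxycycline, and 912 to 935 against 945 to 966 CPM with miR-10a. INA and MAP2 gave most of these sums. Of the 6 tested markers on that list MAP2 and INA rose with miR-10b and none passed with miR-10a. SNAP25 was lower in value with miR-10a (-0.50 ± 0.23, edgeR adjusted p = 0.408) and at -0.03 with miR-10b. DCX, listed with 5 transcripts, had a mean count of 2.33. The 8 progenitor markers summed to 12001 to 12100 CPM in the miR-10b controls and 11511 to 11713 CPM with doxycycline, and to 10757 to 10846 against 10429 to 10761 CPM with miR-10a. NES and VIM gave most of these sums. With miR-10b NES, HES5 and SOX3 fell, NOTCH1 rose and the other 4 did not pass, and with miR-10a none passed. The 5 mesenchymal markers summed to 254 to 277 CPM in the miR-10b controls and 204 to 219 CPM with doxycycline, and to 96.2 to 98.3 against 97.1 to 110 CPM with miR-10a, with DCN near 0. Of the 6 tested floor plate markers only CORIN passed with miR-10b, and it was lower (-0.77 ± 0.09, edgeR adjusted p = 6.3e-08). None of them passed with miR-10a. The part of these shifts in the channel gene changes was not tested.

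The uninduced controls of both vectors also differed. Between miR-10b and miR-10a controls 11 of 60 channel genes passed edgeR's test, 8 higher and 3 lower in the miR-10b controls, 18.3% where 14.1% of all tested genes passed (7.41% higher and 6.72% lower). In 12 members all miR-10b controls lay above all miR-10a controls and in 10 below (20.0% and 16.7%, against 14.2% and 15.9% of all tested genes). Vector and culture cannot be told apart in this comparison. The precursors also differed between the uninduced controls. MIR10B stood at 2.89 to 4.45 CPM in miR-10b and 0.482 to 1.04 CPM in miR-10a controls (edgeR adjusted p = 4.9e-08). MIR10A stood at 0 to 0.0794 CPM (at most 1 read) in miR-10b and 0.641 to 1.37 CPM in miR-10a controls (edgeR adjusted p = 5.4e-06). The part of this uninduced precursor in the channel gene differences was not tested. The controls are the same samples against which the doxycycline groups were set, so the values below and those above are not independent.

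KCNMB1 showed the largest difference, with 3.62, 3.25 and 3.69 CPM in the miR-10a controls against 8.98, 8.30 and 7.51 CPM (log2 1.23 ± 0.14, edgeR adjusted p = 1.4e-08). KCNF1 (0.94 ± 0.10) and KCNJ2 (0.86 ± 0.10) were likewise higher without overlap (edgeR adjusted p = 6.2e-09 and 5.8e-08), and in all 3 genes the difference between the controls was larger in value than either doxycycline effect. KCNG1 stood at 37.9, 39.0 and 38.1 CPM against 52.0, 51.0 and 53.3 CPM (0.44 ± 0.05, edgeR adjusted p = 9.2e-08), with no doxycycline call in either vector. These 4 kept their calls without each single sample.

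Smaller shifts were seen in abundant genes. CACNG4 stood at 239, 252 and 247 CPM in the miR-10a controls and 288, 280 and 276 CPM in the miR-10b controls (0.19 ± 0.04, edgeR adjusted p = 1.0e-04). CACNA2D1 (0.19) and KCNMB4 (0.18) were higher and KCNC1 (-0.15) was lower, and each of these 3 calls was lost when single samples were left out. For CACNA2D1 this was miR-10a control replicate 3 (0.14, edgeR adjusted p = 0.065), for KCNC1 the same sample or miR-10b control replicate 2 or 3 (-0.15 to -0.14, 0.052 to 0.097), and for KCNMB4 replicate 1 or 2 of either control group (0.15 to 0.19, 0.062 to 0.167). KCNK1, a two-pore-domain subunit with a mean count of 17.4, was higher (0.85, edgeR adjusted p = 0.042) and lost its call without replicate 1 or 3 of the miR-10a controls or 2 or 3 of the miR-10b controls (0.73 to 0.84, edgeR adjusted p from 0.101 to 0.178).

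The 2 lower genes besides KCNC1 were KCNA3, the Shaker-type pore known from T cells, and the alpha-2-delta subunit CACNA2D3. KCNA3 stood at 8.76, 9.39 and 9.05 CPM in the miR-10a controls and 6.59, 5.70 and 6.31 CPM in the miR-10b controls (-0.55 ± 0.12, edgeR adjusted p = 6.4e-04). CACNA2D3 stood at 4.98, 6.07 and 4.73 CPM against 3.34, 3.56 and 2.63 CPM (-0.74 ± 0.17, edgeR adjusted p = 0.0010). Neither gene's control groups overlapped.

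**Figure D4:**
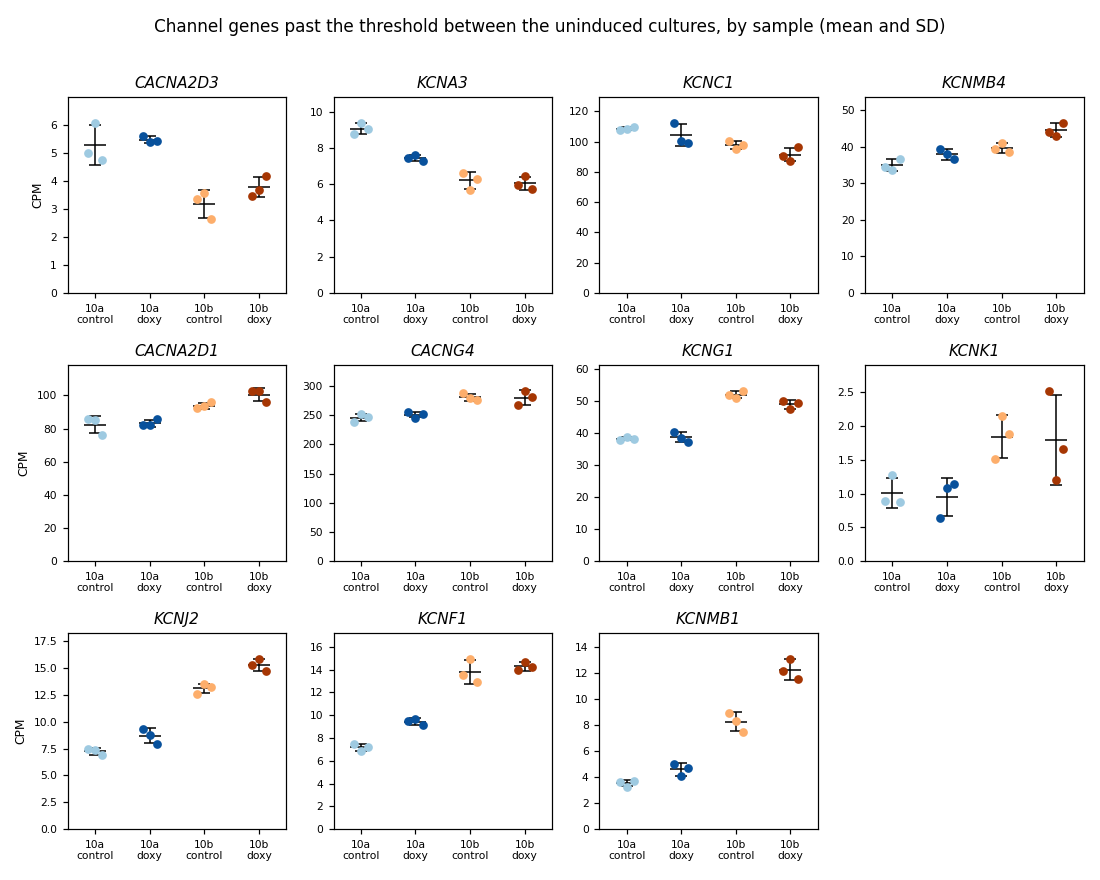
CPM in each of the 12 samples (points), with the mean and SD of each group of 3, for the 11 channel genes past the threshold between the uninduced controls of both vectors; the y axes start at 0. KCNMB1, KCNF1, KCNJ2 and KCNG1 stand higher in all 6 miR-10b samples than in all 6 miR-10a samples, and KCNA3 and CACNA2D3 lower.

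Markers of other cells differed between the same controls. The 5 mesenchymal markers summed to 96.2 to 98.3 CPM in the miR-10a and 254 to 277 CPM in the miR-10b controls, with COL1A1, COL3A1 and LUM called higher. COL1A1 and COL3A1 gave most of these sums. COL1A2 was lower in value and did not pass (-0.22 ± 0.17, edgeR adjusted p = 0.495), and DCN was near 0. The 6 muscle and heart markers summed to 10.5 to 12.9 against 19.0 to 24.3 CPM. Of these ACTC1 alone was tested, and it was higher (0.99 ± 0.10, edgeR adjusted p = 6.8e-10), while TNNT2 had no count in any sample and MYOD1 was near 0. The 8 floor plate markers summed to 1071 to 1089 against 1346 to 1370 CPM. The part of these differences in KCNMB1, KCNJ2 and the other channel genes was not tested.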

How the data were processed

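The authors sequenced poly-A enriched libraries (50-base single-end reads), aligned them to hg19 and deposited raw read counts per RefSeq transcript; the submitters' processing notes name STAR and featureCounts of Subread. Repeated rows were dropped, the transcript with the highest mean count represented each gene, and genes with a mean count over 10 were tested (11451 of 25718). edgeR 4.0.16 (R 4.3.3) quasi-likelihood tests used 1 fit of 4 group means, the total count as library size, and Benjamini-Hochberg adjustment over all tested genes at 0.05. SEs were derived from the log2 fold change and F. The fit was tested on simulated data. Named with values were members called in any of 5 contrasts, the highest member per kb of each family, and members with an 8mer; genes at or under the filter, neighbours and genes outside the channel names were named in addition, after their values were seen. The members and lists were chosen with earlier results of these data known. Some items that this rule or the lists hold are not reported here, in text or figures. Intervals and floors cover counting or replicate error only. Alternatives were TMM, DESeq2 1.42.0, other count filters, summed transcripts, a replicate block, each vector alone, and leaving out each sample. Replicate numbers did not pair samples. Seed matches came from GENCODE 44 3'UTRs and the GRCh37 sequence.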

Additional observations from a re-analysis of the deposited data

Results flagged for a closer look

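KCNA6 was the only channel gene whose doxycycline effect differed between the vectors by the test of the difference itself: the miR-10b effect minus the miR-10a effect was -0.43 ± 0.10 on the log2 scale (edgeR quasi-likelihood test, Benjamini-Hochberg adjusted p = 0.017, 95% interval from -0.64 to -0.23). All 3 miR-10b doxycycline samples were below all 3 of their controls, and the miR-10a groups overlapped. MIR10B reached 2541 to 2662 CPM in the first group and MIR10A 711 to 731 CPM in the second; the part of this difference in precursor level was not tested.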

How the results depend on the processing

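With miR-10a the count of called channel genes was 0, but 1 without a count filter, with counts summed over transcripts or with the 6 samples of the vector alone, and 0 to 1 when single samples were left out. With miR-10b it was 8, and 5 with DESeq2 (4 to 8 without single samples). Over both vectors it was 11, and 5 with DESeq2 (6 to 11). The difference between both effects gave 1, and 2 without a count filter, KCNQ1OT1 being added (0 to 1). The count between controls was 11 (8 to 12). The sources give groups the same replicate numbers, but samples with the same number did not deviate together (correlations from -0.029 to 0.013), so the numbers were not taken as pairs. With a replicate block the counts were 0, 9, 10, 1 and 10 in the same order.

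Of 31 called values, 12 missed the threshold with DESeq2, 4 with TMM factors, 4 without a count filter and 3 with the block, and in 73 of 372 fits leaving out a sample; none changed sign. Signs changed for uncalled values near 0, averages and single-vector effects alike; with miR-10b CACNG7 went from 0.01 to -0.0017 with TMM and -0.0060 with DESeq2. In the average over both vectors KCNK12 was at -0.0027 with TMM and -0.0060 with DESeq2, and KCNQ1OT1 at -0.011, -0.014 and, with the block, -0.0015. Without single samples the average over both vectors ranged from -0.022 to 0.039 for KCNK12, from -0.076 to 0.044 for KCNQ1OT1 and from -0.015 to 0.165 for SCN9A. Depth limited the scarce genes: SEs ran from 0.036 to 0.377 with miR-10a.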
